A study of Meleagris gallopavo with 24 samples.

Results

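The comparison described here is that of salinomycin (Sal) against control in turkey liver. Its members were the liver libraries whose labels name 1 of the 2 feeds, apart from control 3, which the study left out for its low read number and which held 3729229 counts. This left 6 Sal-exposed and 5 control libraries (controls 1, 2, 4, 5 and 6), 11 of the 24 libraries of the series. The other 13 are control 3 and the 12 heart libraries. The birds were turkeys (Meleagris gallopavo) housed at 4 per pen, and all of them ate feed without Sal until the last part of the trial. In weeks 12 and 13 the Sal-exposed group was given feed with 21 mg Sal per kg, an estimated 0.9 mg per kg body weight a day, and the control group stayed on feed without it. Tissue was taken in week 13, and the study describes 6 animals per group. Its purpose was to find the genes that differ in expression between the 2 groups.

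Salinomycin is a carboxylic ionophore that carries monovalent cations across membranes and is used in poultry feed against coccidia. The liver makes glucose in fasting, stores glycogen, burns and builds fatty acids, breaks down amino acids, and secretes most plasma proteins and lipoproteins. In birds it is also the main site of fatty acid synthesis. Hepatocytes rest on a sparse matrix next to a fenestrated endothelium, with stellate cells in between. A difference in a gene's level in whole tissue can come from fewer cells of a type or from less RNA per cell, which these libraries cannot tell apart.

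Of 10269 genes tested with edgeR, 858 (8.36%) were called, that is, passed an adjusted p of 0.05 with a log2 fold change of 1 or more in either direction. Of these, 541 (5.27%) were higher and 317 (3.09%) lower in the Sal-exposed group. At the adjusted p alone 1464 genes passed (14.3%), of which 756 (7.36%) were higher and 708 (6.89%) lower, and the median log2 fold change over all genes was 0.03. At an unadjusted p of 0.05, 3095 genes (30.1%) passed, and for 1033 genes (10.1%) every Sal-exposed library lay on 1 side of all controls. The number of calls was 507 without Sal 2 and 550 without Sal 5, higher calls numbered 812 without control 2, and lower calls 186 without control 5. It was 264 with control 3 included and 1695 with controls 2 and 4 both left out. The higher calls made up 63.1% of all calls, against 50.9% with gene length offsets, 76.4% on library totals alone and 84.3% in DESeq2 with surrogate variables. Expression levels below are in CPM (a count relative to the TMM-scaled library total), and fold changes are Sal-exposed over control. "Rose" and "fell" are used for genes past the adjusted p. To describe the transcriptome by role, 21 lists of metabolic, secretory and structural genes were set beside these shares of all genes.

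**Figure D1:**
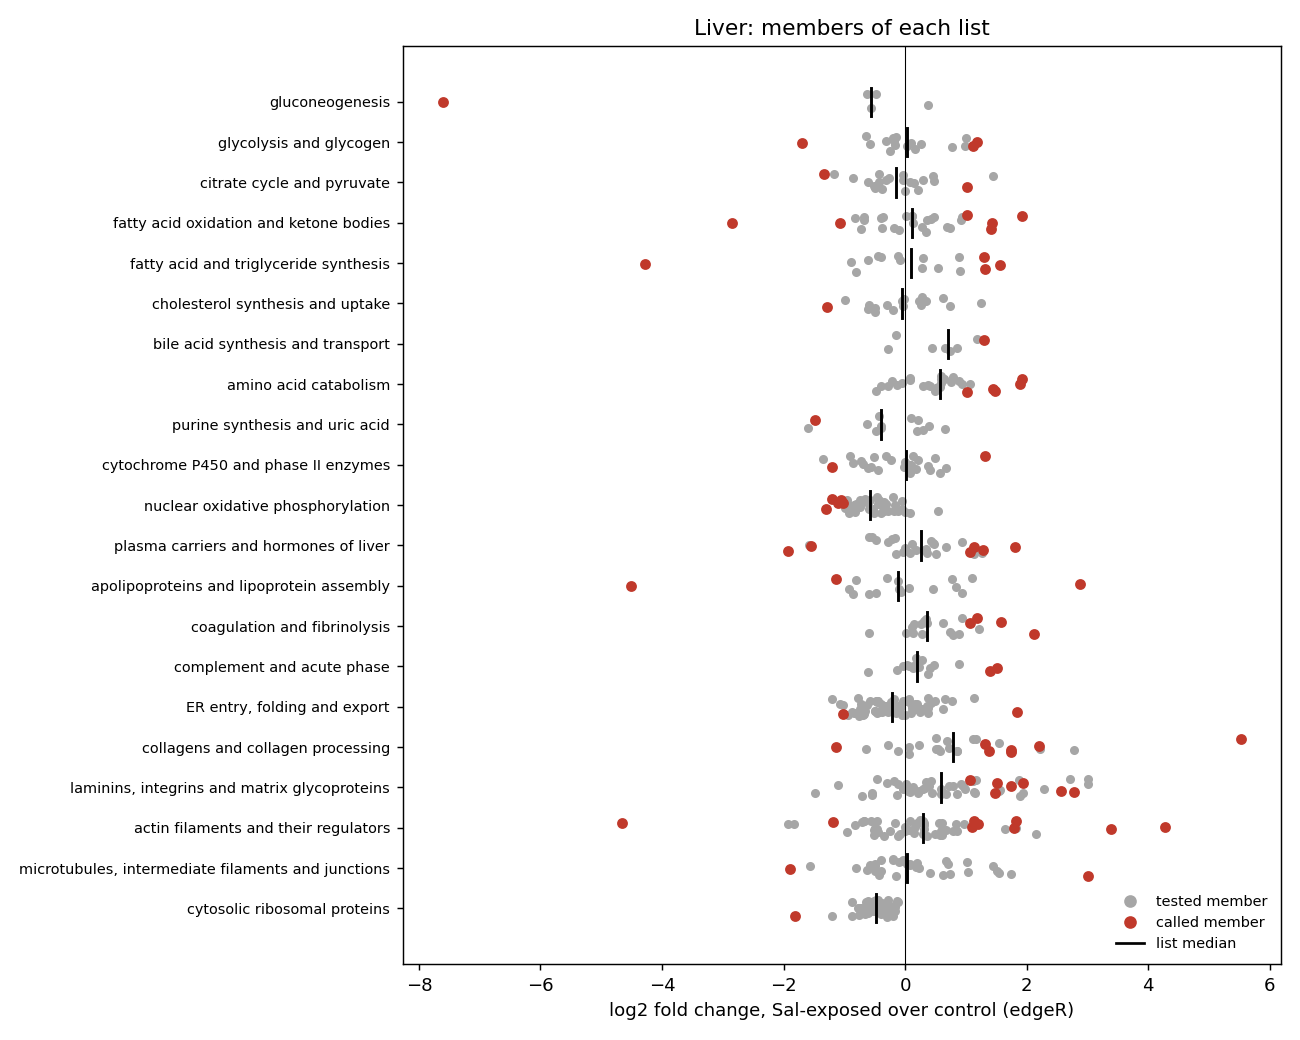
Log2 fold change (x axis, Sal-exposed over control, edgeR) of each tested member of the 21 gene lists (y axis). Grey points are tested members, red points are called members and black lines are list medians; members with no count in any control are counted in the medians but not drawn. All 53 ribosomal protein genes lie below 0 and 20 of 21 coagulation genes above 0.

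The libraries also differed between the groups in measures that span many genes. Total counts were 21028603 to 31305782 in the Sal-exposed and 15706646 to 27338051 in the control libraries. A count was found for 11183 ± 147 genes (SD, n = 6) in the Sal-exposed and 10160 ± 738 (SD, n = 5) in the control libraries (exact permutation test, two-sided, p = 0.00866, adjusted p = 0.0277 over 16 measures). After thinning all libraries to 13016147 nuclear counts the means were 11115 and 10132, with the same p. Controls 2 and 4 had the fewest genes, with 9563 and 9268. Between 68 and 1218 of the tested genes were at 0 in each control and between 1 and 62 in each Sal-exposed library, and 1911 genes (18.6%) were at 0 in at least 1 control. Each library's length trend is Spearman's rho across genes between genomic span and the library's deviation from the mean level. It was 0.12 ± 0.14 (SD, n = 6) with Sal and -0.12 ± 0.09 (SD, n = 5) in controls (exact permutation p = 0.0173, adjusted p = 0.0462). The share of mitochondrial counts did not differ beyond the spread between libraries (adjusted exact permutation p = 0.675). In the study's own quality report, the share of uniquely aligned reads was larger in every Sal-exposed library than in any control used here. The part of these measures in the gene results was not tested.

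Summed marker levels, in CPM of the library total, checked the tissue. The hepatocyte sum was 183396 to 273165 CPM with Sal and 197766 to 224463 CPM in controls (adjusted exact permutation p = 0.152), and every library was thus rich in hepatocyte RNA. CPS1, the carbamoyl phosphate synthetase of the mammalian urea cycle, was low in all of them, at 0.957 to 3.22 CPM. The endothelium sum was higher with Sal, at 134 to 346 against 83.7 to 127 CPM (adjusted exact permutation p = 0.0231). Of its 8 tested markers 4 were called higher (50%, against 5.27% of all genes). These were STAB1 (1.02), PECAM1 (1.13), STAB2 (1.24) and TIE1 (1.29), given as log2 fold changes, while LYVE1 had -0.03. The endothelium markers are long genes, with a median span of 31.6 kb against 10.7 kb over all genes. Their median log2 fold change was 1.07, or 0.80 with gene length offsets. The enterocyte sum was lower with Sal, at 437 to 1288 against 1736 to 22080 CPM (adjusted exact permutation p = 0.0231). Much of it is APOA4, a lipoprotein gene described below. As the mean log2(CPM + 1) of the list relative to the control mean, the enterocyte level was 3.64 in control 1, 1.48 in control 5 and -2.04 to -1.36 in the other controls, and it overlapped the Sal-exposed range of -2.47 to -1.98. The heart muscle sum was 8.35 to 43.1 CPM with Sal and 0.146 to 8.24 CPM in controls (adjusted exact permutation p = 0.0231), and MYL2, a myosin light chain, was its 1 called marker of 5 tested. The stellate cell and macrophage sums overlapped between the groups (adjusted exact permutation p = 0.208 and 0.121). Of their markers PDGFRB, a receptor of stellate cells and pericytes, was called higher (3.32, adjusted p = 0.0223), as were CSF1R (1.22, adjusted p = 0.00571) and MPEG1 (1.07, adjusted p = 0.0174) of macrophages. They were 1 of 6 stellate cell and 2 of 8 macrophage markers tested, and the others did not pass. Among those, ACTA2 had 0.44, DCN 0.43, C1QA 0.13, C1QB 0.23, C1QC -0.03 and CTSS 0.09. In PDGFRB all 5 controls lay below all 6 Sal-exposed libraries, and controls 2 and 4 were at 0. Pancreatic acinar markers reached at most 0.5 CPM.

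**Figure D2:**
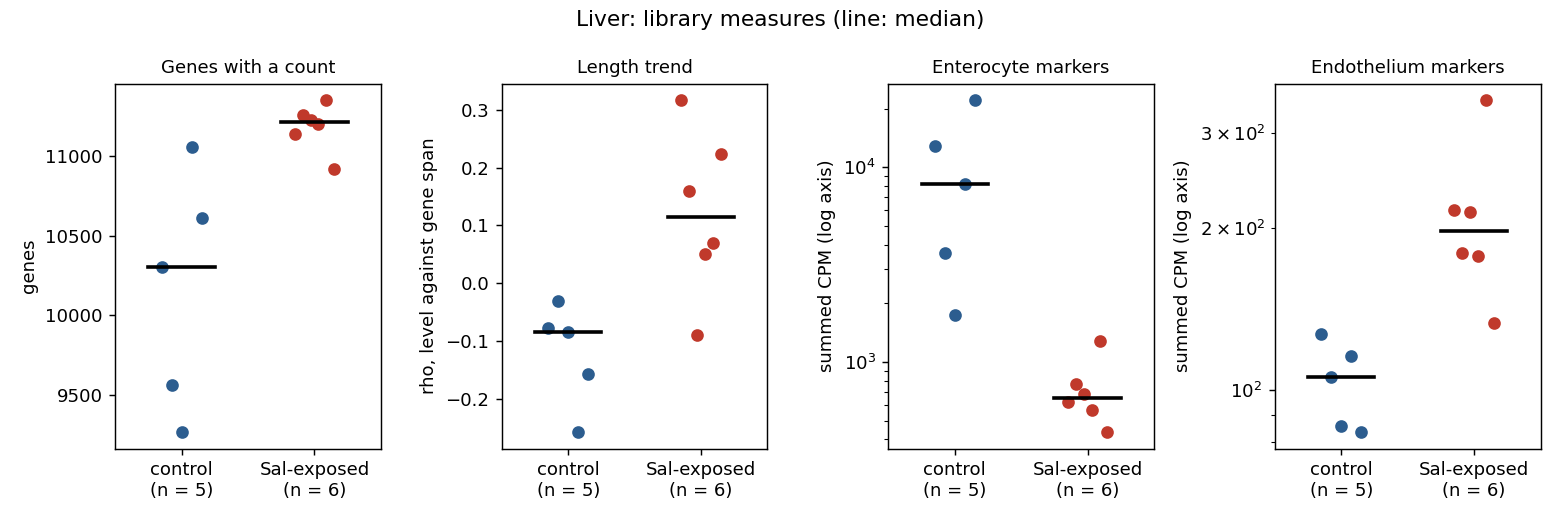
Number of genes with a count, length trend (rho between genomic span and the library's deviation), and summed CPM of enterocyte and endothelium markers (log axes) in the 5 control (blue) and 6 Sal-exposed (red) libraries; each point is a library and lines are group medians. All 6 Sal-exposed libraries lie below the 5 controls in the enterocyte sum, of which APOA4 is a large part, and above them in the endothelium sum.

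PCK1 encodes cytosolic phosphoenolpyruvate carboxykinase, which commits oxaloacetate to gluconeogenesis (ENSMGAG00000009033, Turkey_5.1 assembly, chromosome 22, 12089144 to 12095963). Its level was 394, 324, 123, 280 and 204 CPM in controls 1, 2, 4, 5 and 6, and it ranged from 0.507 to 3.26 CPM with a median of 1.04 CPM over the 6 Sal-exposed libraries. The groups were far apart, and the lowest control was above every Sal-exposed library. PCK1 fell by 7.61 on the log2 scale (SE 0.51, adjusted p = 1.02e-06). Of the 5 gluconeogenesis genes tested, 1 was called lower (20%, against 3.09% of all genes) and none higher. GOT1, the cytosolic aspartate aminotransferase, also fell, by 0.63 on the log2 scale. PPARGC1A (-0.57), MDH1 (-0.48) and SLC37A4 (0.38), in log2 fold change, did not pass the test. The list median was -0.57, which is the value of PPARGC1A. G6PC1 and FBP1 were not analysed here. The study's RT-qPCR primers for PCK1, shown because they mark the stretch of transcript on which its level was measured by a second method, read 5′ to 3′:
PCK1 forward: attgacgagccattaccccc
PCK1 reverse: atacaagaggcacaccaagcag

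Some glycogen genes rose, while others did not. GYG2 encodes a glycogenin, the protein primer on which glycogen is built (chromosome 1, 127067631 to 127078412). It had no count in any of the 5 controls and 19 to 40 CPM (median 28.8 CPM) in the 6 Sal-exposed libraries. Against a floor of 3 counts per control library this is at least 204-fold higher. UGP2, which makes the UDP-glucose that glycogen synthase uses, rose by 1.11 (log2), and PGM2 by 0.99. GYS2, the liver glycogen synthase, instead fell by 0.65 on the log2 scale. PGM1 (-0.25), GYG1 (-0.19) and PYGL (0.16), in log2 fold change, did not pass the test. In glycolysis PKM, a pyruvate kinase, had 113, 34.9, 83.5, 76.2 and 46.1 CPM in the controls and 14.6 to 28.2 CPM with Sal. The ranges were apart and PKM fell by 1.69 on the log2 scale (SE 0.29, adjusted p = 0.00275). Of 19 genes of glycolysis and glycogen 3 were called higher (15.8%, against 5.27% of all genes) and 1 lower (5.26%, against 3.09%). The list median was 0.02, which is close to that of all genes.

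Some genes that act at the entry of pyruvate into mitochondria changed as well, while others did not pass the test. MPC2, a subunit of the mitochondrial pyruvate carrier, had 183 to 343 CPM in the controls and 84.2 to 119 CPM with Sal, without overlap, and fell by 1.33 on the log2 scale (SE 0.20, adjusted p = 0.00153). PDHA1, the catalytic subunit of pyruvate dehydrogenase, fell by 0.86 on the log2 scale. PDK4, the kinase that inhibits that enzyme, had 54 to 73.5 CPM in the controls and 69.3 to 191 CPM with Sal. These ranges overlapped in Sal 3. PDK4 rose by 1.01 (log2, SE 0.25, adjusted p = 0.0167), and its call was lost when any of Sal 1, 2 or 4 or control 2 or 4 was left out (adjusted p up to 0.0459 over all 11 single omissions, with the fold change then below the threshold in those fits). MPC1 (-0.43), PDHB (-0.49), DLAT (0.47) and PDK1 (1.44), in log2 fold change, did not pass the test. Of 22 citrate cycle and pyruvate genes, 1 was called higher and 1 lower. That share of 9.09% is close to the 8.36% of all genes.

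Nuclear genes of oxidative phosphorylation mostly had negative log2 fold changes. Of 43 tested, 5 were called lower (11.6%, against 3.09% of all genes) and none higher. At the adjusted p alone 16 of the 43 fell, against 6.89% of all genes. The median log2 fold change was -0.59, and 41 of the 43 lay below 0. The level of the list, as mean log2(CPM + 1) relative to the control mean, was -0.81 to -0.18 with Sal and -0.28 to 0.29 in the controls, so the groups overlapped in Sal 3. NDUFS3, a core subunit of complex I, had 135, 129, 152, 186 and 213 CPM in the controls and 50.4 to 80.6 CPM (median 65.6 CPM) with Sal. It fell by 1.30 on the log2 scale (SE 0.19, adjusted p = 0.00145). UQCRB of complex III had 101, 91, 145, 120 and 133 CPM against 42.3 to 61.1 CPM and fell by 1.21 on the log2 scale (SE 0.18, adjusted p = 0.00133). Neither gene overlapped between the groups. NDUFV2, NDUFA5 and COX6A1 were the other called members, at -1.10, -1.05 and -1.03. These genes are short, with a median span of 3.58 kb against 10.7 kb over all genes, and with gene length offsets the list median was -0.53. SDHA, of complex II and one of the reference genes of the study's RT-qPCR in turkey, had a log2 fold change of 0.00 (SE 0.17).

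**Figure D3:**
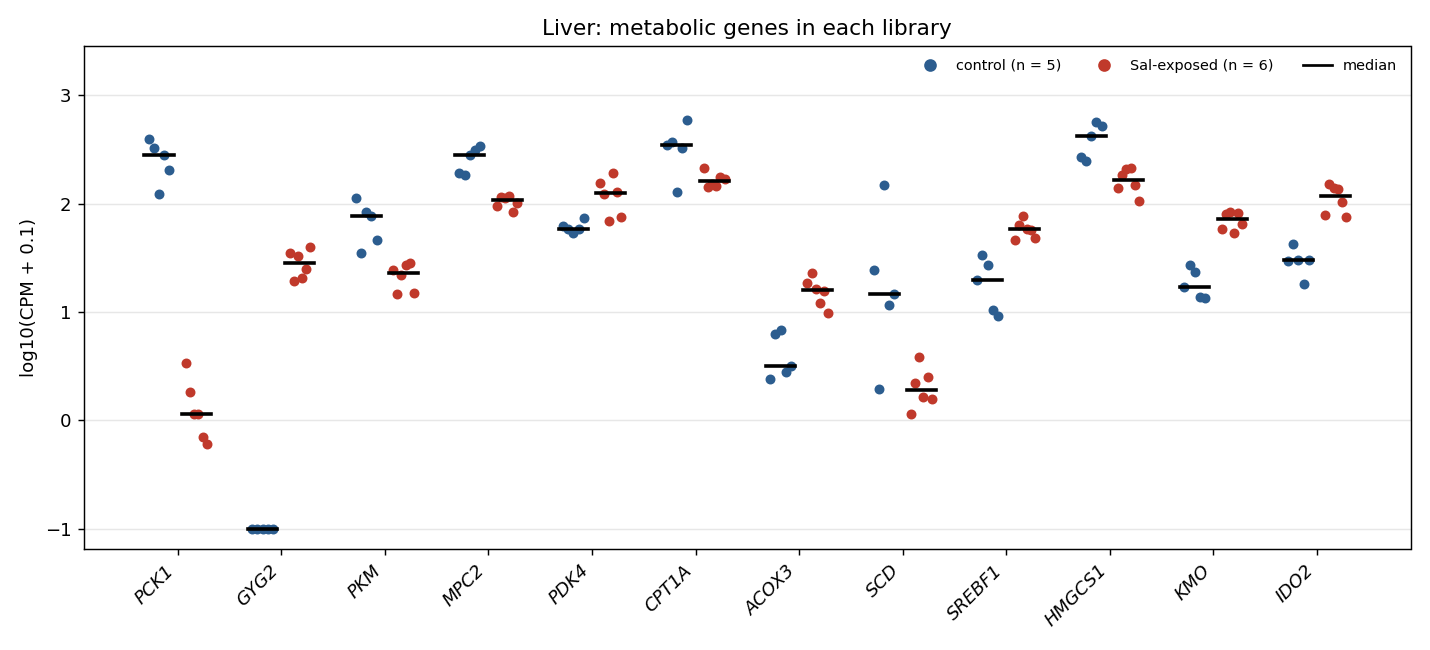
Level of 12 metabolic genes (x axis) as log10(CPM + 0.1) (y axis) in each of the 5 control (blue) and 6 Sal-exposed (red) libraries, with lines at the group medians. PCK1 is at 123 to 394 CPM in controls and 0.507 to 3.26 CPM with Sal, while GYG2 has no count in any control.

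Fatty acid oxidation genes changed in both directions. CPT1A, which joins long-chain fatty acids to carnitine at the outer mitochondrial membrane and limits the rate of their oxidation, had 352, 370, 127, 329 and 588 CPM in the controls and 144 to 214 CPM (median 161 CPM) with Sal. Control 4 lay below all Sal-exposed libraries, so the groups overlapped. CPT1A fell by 1.08 on the log2 scale (SE 0.28, adjusted p = 0.0231), a call lost without Sal 2 or without control 6 (adjusted p up to 0.0506). ACOX3, a peroxisomal oxidase that starts fatty acid oxidation outside mitochondria, had 2.29, 6.17, 6.67, 2.67 and 3.04 CPM in the controls and 9.64 to 23 CPM with Sal. The groups did not overlap, and ACOX3 rose by 1.92 (log2, SE 0.33, adjusted p = 0.0032). ACSL5, an acyl-CoA synthetase, rose by 1.44 (SE 0.30, adjusted p = 0.00802), its gene model overlapping 1 other. EHHADH, a peroxisomal multifunctional enzyme, rose by 0.92 and ETFDH, which passes electrons from fatty acid oxidation to the respiratory chain, by 1.02. In all 28 genes were tested, with a median of 0.12. Of these, 4 were called higher (14.3%, against 5.27% of all genes) and 2 lower (7.14%, against 3.09%).

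Lipid synthesis genes did not move together. SCD, the desaturase that makes oleate, had 24.5, 1.85, 148, 11.4 and 14.5 CPM in the controls and 1.04 to 3.72 CPM (median 1.83 CPM) with Sal. Control 2 fell within the Sal-exposed range and control 4 was far above the other controls. SCD fell by 4.29 on the log2 scale (SE 0.94, adjusted p = 0.0161), and the largest adjusted p on leaving out 1 library was 0.0431. Without control 4 it fell by 2.67 on the log2 scale. SREBF1, the transcription factor that drives lipogenic genes, had 19.8, 33.2, 26.8, 10.3 and 9 CPM in the controls and 46.4 to 77.6 CPM with Sal. The groups did not overlap, and SREBF1 rose by 1.57 (log2, SE 0.31, adjusted p = 0.00609). GPAM, the first enzyme of triglyceride synthesis, rose by 1.32 (SE 0.22, adjusted p = 0.00265), from 12.2 to 25.5 CPM in controls to 31.3 to 55.4 CPM with Sal. ELOVL5, an elongase of polyunsaturated fatty acids, rose by 1.29, while ACLY, which makes cytosolic acetyl-CoA, fell by 0.89 on the log2 scale. FASN, the fatty acid synthase, had 11.2 to 53.9 CPM in controls and 26.3 to 64.3 CPM with Sal and was not called (log2 fold change 0.89, SE 0.40, adjusted p = 0.148). It passed the call without control 4 (1.50, adjusted p = 0.00816). Of 16 genes tested, 3 were called higher (18.75%, against 5.27% of all genes) and 1 lower (6.25%, against 3.09%).

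Of 18 cholesterol genes only HMGCS1, which makes cytosolic HMG-CoA for sterol synthesis, passed the test. It had 268, 250, 422, 571 and 526 CPM in the controls and 106 to 216 CPM with Sal, without overlap, and fell by 1.28 on the log2 scale (SE 0.26, adjusted p = 0.00705). SQLE, a later step of the pathway, had 21.9 to 75.7 against 7.66 to 34.8 CPM (log2 fold change -0.98, SE 0.42, adjusted p = 0.125). In bile acid synthesis AKR1D1, a reductase of the sterol ring, had 61.7 to 110 CPM in the controls and 123 to 359 CPM with Sal. It rose by 1.29 (log2, SE 0.27, adjusted p = 0.00764). CYP7A1, the rate-limiting enzyme of that pathway, varied from 4.17 to 108 CPM in controls and from 33.7 to 318 CPM with Sal (log2 fold change 1.19, SE 0.72, adjusted p = 0.298). The 8 bile acid genes had a median of 0.70, with 1 called higher (12.5%, against 5.27% of all genes).

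Genes of amino acid breakdown were mostly higher. Of 31 tested, 5 were called higher (16.1%, against 5.27% of all genes) and none lower. At the adjusted p alone 9 rose, and 25 lay above 0 with a median of 0.57 (0.42 with gene length offsets). The level of the list, as mean log2(CPM + 1) relative to the control mean, was 0.21 to 0.97 with Sal. It was -0.57 to 0.50 in the controls, so the groups overlapped. The enzymes IDO2 and KMO, of the kynurenine branch of tryptophan breakdown, are examples. IDO2, which opens the tryptophan ring, had 29.5, 42.1, 30.3, 18.1 and 30.4 CPM in the controls and 76 to 151 CPM (median 120 CPM) with Sal, and KMO, which hydroxylates kynurenine, had 17, 27.1, 23.4, 13.7 and 13.3 CPM against 53.3 to 83.6 CPM (median 72.8 CPM). No Sal-exposed library overlapped a control in either gene. IDO2 rose by 1.92 (log2, SE 0.25, adjusted p = 0.000813) and KMO by 1.90 (log2, SE 0.23, adjusted p = 0.000585). The IDO2 model overlaps 1 other gene model, and the counting is not stated to use strand. GPT2, an alanine aminotransferase, rose by 1.44, DDC, an aromatic amino acid decarboxylase, by 1.48, and CTH, which makes cysteine, by 1.02. FAH and HPD, both of tyrosine breakdown, rose by 0.88 and 0.79. ASS1 was in the count table but had too few counts to be tested.

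Birds excrete nitrogen as uric acid, built through the purine pathway. Of 13 purine and uric acid genes only MTHFD1, which supplies one-carbon units on folate, was called. It had 990, 845, 1327, 1828 and 2074 CPM in the controls and 386 to 662 CPM with Sal, without overlap, and fell by 1.49 on the log2 scale (SE 0.26, adjusted p = 0.0032). The list median was -0.39. Among 28 cytochrome P450 and phase II genes, 1 was called in each direction (3.57%, against 5.27% higher and 3.09% lower of all genes). At the adjusted p alone 5 fell and 1 rose, against 6.89% and 7.36% of all genes. Besides NQO1 the falls were CYP4F8 (-0.91), CYP4V2 (-0.85), MGST2 (-0.61) and CYP20A1 (-0.56), in log2 fold change. The list median was 0.01, and 15 of the 28 lay above 0. The abundant CYP3A37 (0.09), CYP1A5 (0.21) and CYP2D6 (-0.24) did not pass the test. NQO1, a quinone reductase, had 119 to 200 CPM in the controls and 57.1 to 91.7 CPM with Sal and fell by 1.21 on the log2 scale (SE 0.19, adjusted p = 0.00153). AHR, the receptor that induces xenobiotic enzymes, had 2.51 to 10.8 CPM against 9.23 to 16.3 CPM. The ranges overlapped, and AHR rose by 1.31 (log2, SE 0.37, adjusted p = 0.0297). Its call was lost without any 1 of Sal 2, 5 or 6 or control 1, 5 or 6 (adjusted p up to 0.0746) and with gene length offsets (log2 fold change 1.01, adjusted p = 0.065).

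Of the abundant secreted proteins, ALB, TF, SERPINC1 and FGB did not pass the test, while APOA4, described below, was called lower. ALB, serum albumin, had 143860 to 233398 CPM in the controls and 143859 to 211234 CPM with Sal (log2 fold change -0.01, SE 0.29). TF, transferrin, had 11760 to 20908 CPM against 4452 to 34337 CPM (log2 fold change -0.16, SE 0.44), and SERPINC1, antithrombin, 2159 to 4612 against 3107 to 4251 CPM (log2 fold change 0.11, SE 0.23). FGB, the fibrinogen beta chain, reached 27713 CPM in Sal 4 and 14470 CPM in Sal 6, with 4806 to 8631 CPM in controls (log2 fold change 0.89, SE 0.40, adjusted p = 0.147). The fold changes of ALB and TF changed sign under other settings. TTR, IGF1 and FGF21 were not analysed here.

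Among 30 plasma carriers and liver hormones 4 were called higher (13.3%, against 5.27% of all genes) and 2 lower (6.67%, against 3.09%). The list median was 0.25. TTPA, which loads vitamin E onto lipoproteins, had 4.87, 11.2, 6.82, 9.41 and 13 CPM in the controls and 23.4 to 40.9 CPM (median 30.3 CPM) with Sal. It rose by 1.80 (log2, SE 0.26, adjusted p = 0.00124). IGFALS, which keeps insulin-like growth factors in the circulation, had 25.5 to 66.3 CPM against 71.7 to 135 CPM and rose by 1.28 (log2, SE 0.25, adjusted p = 0.00578). AGT, the angiotensin precursor, rose by 1.13. INHBC, an activin chain made by hepatocytes, had 143, 94.8, 154, 178 and 79 CPM in the controls and 27 to 72.4 CPM with Sal and fell by 1.56 on the log2 scale (SE 0.27, adjusted p = 0.0032). None of TTPA, IGFALS and INHBC overlapped between the groups.

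In lipoprotein genes the called falls were those of APOC3 and APOA4, both exchangeable apolipoproteins. APOC3, an inhibitor of triglyceride clearance, had 38.4, 42.9, 62.9, 56.6 and 65.1 CPM in the controls and 8.52 to 48.7 CPM (median 17.8 CPM) with Sal. It fell by 1.14 on the log2 scale (SE 0.35, adjusted p = 0.041), a call lost without any 1 of Sal 1, 2, 5 or 6 or control 4, 5 or 6 (adjusted p up to 0.0867). APOA4, a lipid carrier that enterocytes also make in quantity, had 4240, 4278, 1970, 6334 and 19183 CPM in controls and 201 to 500 CPM with Sal, without overlap. It fell by 4.51 on the log2 scale (SE 0.51, adjusted p = 0.000392), with a log2 fold change of -3.73 without control 6. APOA4 is also the most abundant of the enterocyte markers, of which 8 of 12 tested were called lower (66.7%, against 3.09% of all genes). FABP2, SI, MEP1A and CPO, at log2 fold changes of -7.42, -6.82, -7.28 and -7.39, are among those 8, and controls 1 and 5 carry these values. FABP2 was at 443 and 37.9 CPM there and at 0.0474 to 2.93 CPM in the other controls, and CPO at 318 and 63.8 CPM there and at 0 in the others, while APOA4 was above the Sal-exposed range in every control. The part of the enterocyte signal in the fall of APOA4 was not tested. APOA1, the main protein of high-density lipoprotein, had 9290 to 21358 CPM against 5933 to 11387 CPM (log2 fold change -0.86, SE 0.28, adjusted p = 0.0539). APOB and MTTP, which build the large lipoproteins, had log2 fold changes of -0.11 and 0.07. ABCA1, the pump that lipidates APOA1, had 0.111, 6.03, 1.34, 4.01 and 2.7 CPM in the controls and 13.2 to 26.6 CPM with Sal, without overlap. It rose by 2.88 (log2, SE 0.59, adjusted p = 0.00741). Of 18 genes, 1 was called higher (5.56%, against 5.27% of all genes) and 2 lower (11.1%, against 3.09%).

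Coagulation genes lay almost all above 0. Of 21 tested, 4 were called higher (19.0%, against 5.27% of all genes) and none lower. Of the 21, 20 lay above 0, and the median was 0.37 (0.36 with gene length offsets). The list level, as mean log2(CPM + 1) relative to the control mean, was 0.31 to 0.90 with Sal. In the controls it was -0.29 to 0.41, so the groups overlapped. F5, the cofactor that speeds thrombin formation, had 219, 586, 400, 288 and 377 CPM in the controls and 748 to 1341 CPM (median 1113 CPM) with Sal. It rose by 1.57 (log2, SE 0.26, adjusted p = 0.00247). PLAT, the tissue plasminogen activator, which endothelium releases, had 0.849, 3.94, 1.82, 2.44 and 2.14 CPM against 4.89 to 21.8 CPM, with Sal 5 highest, and rose by 2.12 (log2, SE 0.44, adjusted p = 0.00743). Neither gene overlapped between the groups. KNG1, kininogen, rose by 1.19, SERPINF2, the plasmin inhibitor, by 1.07 and F10 by 0.62. In complement, C6 and C7 of the membrane attack complex were the 2 called members of 16 (12.5% higher, against 5.27% of all genes). C6 had 65.5 to 161 CPM in the controls and 162 to 494 CPM with Sal, highest in Sal 4, and rose by 1.40 (log2, SE 0.31, adjusted p = 0.0108). C7 overlapped between the groups and rose by 1.52 (SE 0.41, adjusted p = 0.0271), a call lost without Sal 1, Sal 5, control 5 or control 6 (adjusted p up to 0.0639).

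The machinery that moves proteins into and out of the endoplasmic reticulum moved little. Of 70 genes, 1 was called in each direction (1.43%, against 5.27% higher and 3.09% lower of all genes). At the adjusted p alone 7 of the 70 fell and 2 rose, against 6.89% and 7.36% of all genes. The list median was -0.21. SEC24D, a cargo adaptor of the COPII coat that carries large cargo such as procollagen, had 5.43, 3.18, 6.48, 3.92 and 3.71 CPM in the controls and 12.7 to 19.6 CPM (median 16.6 CPM) with Sal. It rose by 1.84 (log2, SE 0.24, adjusted p = 0.000813), without overlap between the groups. SEC13 and SAR1A, of the same coat, fell by 0.78 and 0.74 on the log2 scale, and COPE, of the COPI coat, by 0.87. SEC11C, a signal peptidase subunit, had 80 to 160 CPM in the controls and 31.5 to 73.8 CPM with Sal and fell by 1.01 on the log2 scale (SE 0.26, adjusted p = 0.0188). That call was lost without any 1 of Sal 1, 3 or 5 or control 4 or 5. The chaperone HSPA5, a marker of the unfolded protein response, had 371 to 762 CPM against 221 to 632 CPM (log2 fold change -0.50, SE 0.26, adjusted p = 0.22), and SDF2L1 -0.39 (SE 0.29).

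Several collagen genes of the basement membrane rose. COL4A6, a network collagen of basement membranes (chromosome 9, 13925718 to 13964672), had 0, 0.0474, 0, 0.0922 and 0.281 CPM in the controls and 2.17 to 5.66 CPM (median 3.53 CPM) with Sal. The groups did not overlap. COL4A6 rose by 5.52 (log2, SE 0.80, adjusted p = 0.00127), a size that rests on the few counts of the controls and was 6.63 without control 6. Its RT-qPCR primers in the study, shown for the same reason as those of PCK1, read 5′ to 3′:
COL4A6 forward: caggaccaaaagggctggat
COL4A6 reverse: tcccttgatgcccaaaggac

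The neighbouring genes COL4A1 and COL4A2, which encode the common chains of type IV collagen and have overlapping models, rose too. COL4A1 had 8.24, 31.8, 20.2, 19.1 and 10.3 CPM in the controls and 28.6 to 124 CPM (median 55.5 CPM) with Sal and rose by 1.74 (log2, SE 0.41, adjusted p = 0.0138). COL4A2 had 4.39 to 16.8 CPM against 12.8 to 54.4 CPM and rose by 1.39 (log2, SE 0.39, adjusted p = 0.0293). Both overlapped between the groups, and Sal 5 was the highest library in each. The COL4A2 call was lost without any 1 of Sal 1, 2 or 5 or control 4 or 5 (adjusted p up to 0.069) and with gene length offsets (log2 fold change 1.02, adjusted p = 0.066). COL14A1, a fibril-associated collagen, had 1.8 to 4.43 CPM against 3.51 to 15.7 CPM and rose by 1.74 (SE 0.43, adjusted p = 0.0164). SERPINH1, the collagen chaperone, rose by 1.31. COL6A2, of the microfibrillar type VI collagen, instead had 27.2, 41.9, 21.9, 29.8 and 22.7 CPM in controls and 5.18 to 19.9 CPM with Sal and fell by 1.15 on the log2 scale (SE 0.30, adjusted p = 0.0231). Its ranges did not overlap, but the call was lost without any 1 of Sal 2, 3 or 4 or control 2 or 5 (adjusted p up to 0.0526). Of 26 collagen genes 6 were called higher (23.1%, against 5.27% of all genes) and 1 lower (3.85%, against 3.09%). The median was 0.79, or 0.57 with gene length offsets. The median span of these genes was 27.9 kb, and 6 of them had no count in at least 1 control. COL1A1, COL1A2 and COL3A1, the fibrillar collagens of scar tissue, were not analysed here.

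Other matrix genes went the same way. Of 56 laminin, integrin and matrix glycoprotein genes 7 were called higher (12.5%, against 5.27% of all genes) and none lower. Their median was 0.59, or 0.35 with gene length offsets, and 17 members had no count in at least 1 control. LAMA5, a laminin chain of mature basement membranes, had 3.66, 1.23, 0.192, 3.37 and 5.4 CPM in the controls and 8.43 to 39.9 CPM (median 14.8 CPM) with Sal. It rose by 2.78 (log2, SE 0.59, adjusted p = 0.00946). THBS1, a matricellular protein that activates latent TGF-beta, had 2.1, 1.95, 2.54, 1.15 and 1.29 CPM against 7.74 to 19.4 CPM and rose by 2.57 (log2, SE 0.34, adjusted p = 0.000813). Neither overlapped between the groups, and Sal 5 was highest in both. FN1, fibronectin, had 188 to 376 CPM in the controls and 333 to 589 CPM with Sal and rose by 0.91 (log2, SE 0.24, adjusted p = 0.024). The receptors CD44, SDC1 and ITGAV rose by 1.47, 1.52 and 1.95. LAMB1 had 23.5 to 34.4 CPM against 20.8 to 72.4 CPM and was not called (log2 fold change 0.34, SE 0.29). The endothelium sum, 134 to 346 against 83.7 to 127 CPM, moved with these genes, as did the stellate cell marker PDGFRB at 2.01 to 12.2 against 0 to 1.33 CPM, though not the stellate cell sum, which overlapped at 61.2 to 195 against 40.5 to 104 CPM. Their part in these genes was not tested.

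**Figure D4:**
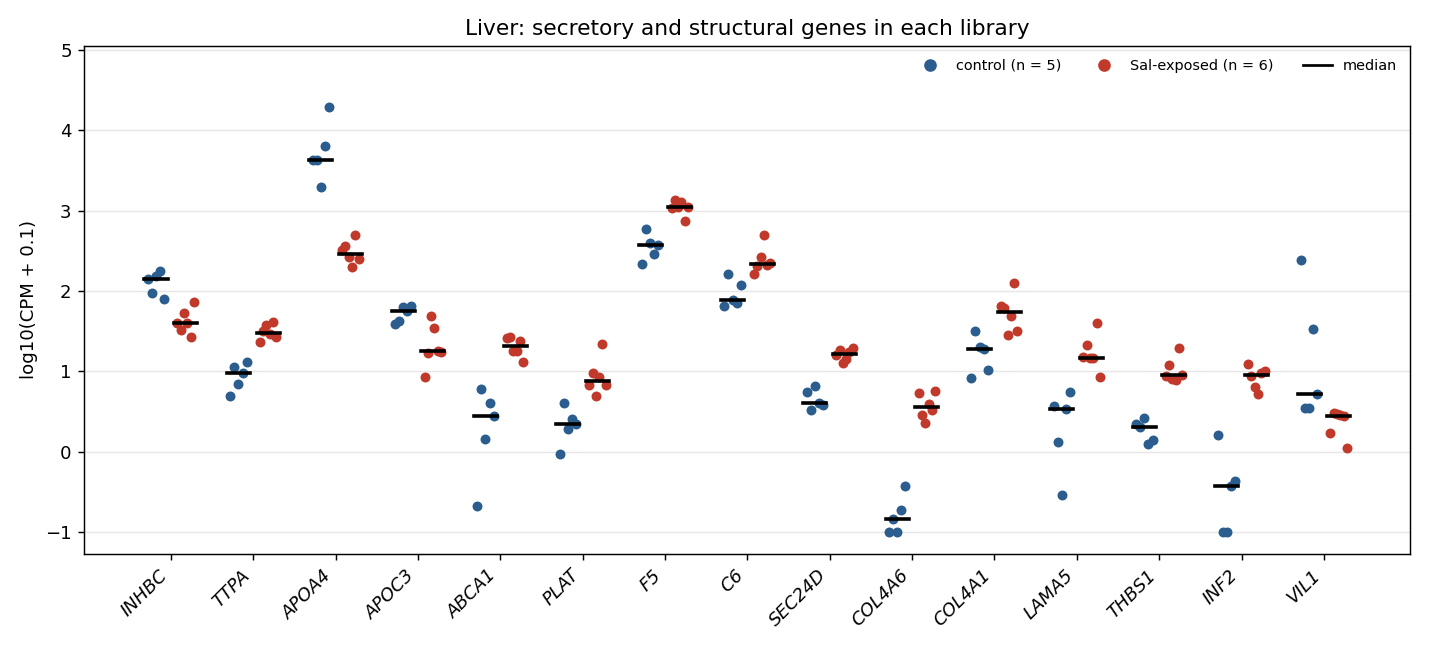
Level of 15 secretory and structural genes (x axis) as log10(CPM + 0.1) (y axis) in each of the 5 control (blue) and 6 Sal-exposed (red) libraries, with lines at the group medians. Control 6 has the highest APOA4 value (19183 CPM) and Sal 5 the highest values of COL4A1, LAMA5, THBS1 and PLAT.

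Among 59 actin genes 8 were called higher (13.6%, against 5.27% of all genes) and 2 lower (3.39%, against 3.09%). The list median was 0.29 (0.17 with gene length offsets). INF2, a formin that both builds and severs actin filaments, had 1.51, 0, 0, 0.277 and 0.338 CPM in the controls and 5.18 to 12.4 CPM (median 9.01 CPM) with Sal. It rose by 4.27 (log2, SE 0.79, adjusted p = 0.00469), or by 5.80 without control 1, and its model overlaps 1 other. CYFIP2, of the WAVE complex that turns on branched actin, had 0.332, 1.95, 0, 0.415 and 0.9 CPM against 5.68 to 10.3 CPM and rose by 3.38 (log2, SE 0.66, adjusted p = 0.00599), or by 4.20 without control 2. Neither overlapped between the groups. The spectrin anchors ANK1 and ANK2 rose by 1.83 and 1.78, and TLN1, which ties integrins to actin, by 1.10. ARPC5L, of the branching complex itself, fell by 1.19 on the log2 scale. VIL1, the villin of microvilli, had 246, 3.46, 3.46, 34.1 and 5.12 CPM in the controls and 1.01 to 2.92 CPM with Sal. It fell by 4.65 on the log2 scale (SE 1.23, adjusted p = 0.0344), and the call was lost without any 1 of the 6 Sal-exposed libraries or control 5 (adjusted p up to 0.0748). Without control 1 it fell by 2.32 on the log2 scale. Controls 1 and 5, high in VIL1, had enterocyte sums of 12849 and 8191 CPM. Control 6 had the highest sum, 22080 CPM, most of it APOA4 (19183 CPM on the TMM scale), and 5.12 CPM of VIL1. As mean log2(CPM + 1) relative to the control mean, the enterocyte list was at -1.36 in control 6, 3.64 in control 1 and 1.48 in control 5. ACTB, beta-actin, had 483 to 1080 against 422 to 896 CPM (log2 fold change -0.26, SE 0.26).

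Microtubule, intermediate filament and junction genes had 1 call in each direction among 35 (2.86%, against 5.27% higher and 3.09% lower of all genes). STMN1, which destabilises microtubules, had 7.09, 6.74, 11.4, 12.1 and 16.4 CPM in the controls and 1.79 to 3.69 CPM with Sal, without overlap, and fell by 1.89 on the log2 scale (SE 0.29, adjusted p = 0.00163). PPL, a plakin of desmosomes, had 0.427 to 1.96 CPM in controls and 1.45 to 26.3 CPM with Sal and rose by 3.02 (log2, SE 0.73, adjusted p = 0.0167), or by 2.28 without Sal 2, with overlapping ranges. VIM, vimentin, had a log2 fold change of -0.04 (SE 0.24). TJP1, a scaffold of tight junctions, rose by 0.70.

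All 53 cytosolic ribosomal protein genes lay below 0, with a median of -0.48 (-0.35 with gene length offsets). Over all genes, 4945 of 10269 lay below 0. The median level of the list was 141 CPM. Among the 2054 tested genes of highest mean CPM the median log2 fold change was -0.19, and the part of this level trend was not tested. Of the 53, 1 was called lower (1.89%, against 3.09% of all genes). At the adjusted p alone 7 of the 53 fell, against 6.89% of all genes. The called gene, RPL22L1, a paralog of RPL22 and so open to shared reads, had 17.2, 8.11, 13.3, 10.6 and 15 CPM in the controls and 1.65 to 7.3 CPM (median 3.51 CPM) with Sal, where Sal 6 was highest. It fell by 1.82 on the log2 scale (SE 0.34, adjusted p = 0.00498). The level of the list, as mean log2(CPM + 1) relative to the control mean, was -1.09 in Sal 1 but 0.03 in Sal 3, and -0.45 to 0.36 in the controls, so the groups overlapped. The median span of these genes was 2.45 kb. The study's primers for RPL22L1, shown for the same reason as the others, read 5′ to 3′:
RPL22L1 forward: tgattccgggaactttgaacag
RPL22L1 reverse: agtgttccccaagtttccagtt

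**Figure D5:**
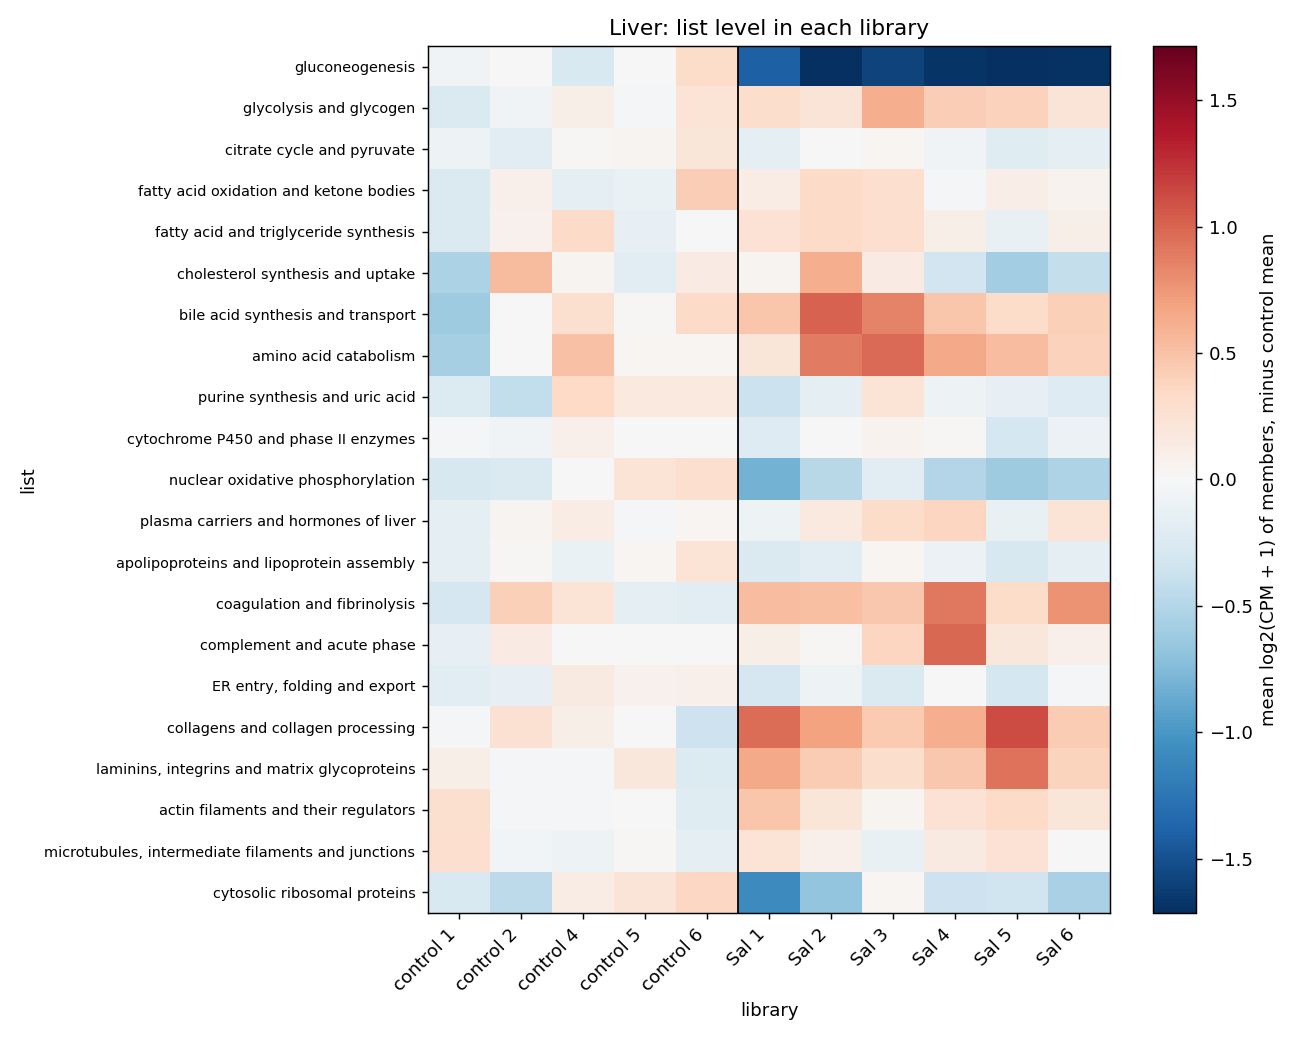
Mean log2(CPM + 1) of the members of each list (rows) in each library (columns), as the difference from the mean of the 5 controls, on a colour scale from blue (lower) to red (higher). The mean of the 5 gluconeogenesis genes is lower in every Sal-exposed library (-1.71 to -1.40). PCK1, with a log2 fold change of -7.61, carries most of that difference, and the list median is -0.57. Collagen genes are highest in Sal 5 (1.12).

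Heart libraries of the same feeding groups allowed 1 test of whether the liver change was the same in another tissue. The tissue by treatment term was called for 1851 of 11158 genes (16.6%), and for 44 of the 72 genes named by rule. Of the 72, 55 were called in liver, and many were named for that change, which also enters the term. Their share therefore cannot be set against that of all genes. COL4A6 (6.29, SE 0.84, adjusted p = 0.000126) and THBS1 (2.69, SE 0.58, adjusted p = 0.00371), given as the liver minus the heart log2 fold change, were among them. PCK1 and KMO had too few counts to be tested within heart, so that their tissue terms add little to the liver values. GYG2 rose in heart too (log2 fold change 5.79, adjusted p = 0.00157). The study dissected both tissues from its 6 animals per group, and the fit took the heart and liver libraries as independent. For CPT1A the difference was -0.47 (SE 0.44, adjusted p = 0.464) and for COL6A2 0.21 (SE 0.46, adjusted p = 0.78).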

How the data were processed

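Liver RNA of turkeys was sequenced as mRNA libraries, and the deposited table holds counts per gene that the authors made with fastp, STAR and RSEM on Turkey_5.1 with Ensembl gene models. Strand use and versions were not given in the sources used here. Of 36 columns, 24 matched a library and 12 matched none and were not used. Deposited tables of the authors' own comparisons (DESeq2 fold changes and p-values) gave only gene positions and symbols. Symbols came from these tables for 4985 genes and from RefSeq genes of that assembly overlapping by at least 50% for 3497, and 3105 genes had none.

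Counts were analysed in R 4.3.3 by edgeR 4.0.16, using its quasi-likelihood test (TMM, filterByExpr, robust, Benjamini-Hochberg over all genes, two-sided), without covariates. Each SE was derived from that test as the absolute log2 fold change divided by the square root of its F statistic. Library measures were compared by exact permutation tests, and scripts were tested on simulated data. Intervals of counting error are not given, and p-values measure the spread between libraries. The pen of each bird was not given in the sources used here, so the p-values do not account for spread between pens.

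Named genes are a fixed panel, up to 2 called members per list and direction with a mean count of at least 100, and the 10 largest changes per direction without overlap between groups. Other list members are given by their values only. Panel, lists, primers and tests were chosen with earlier results of these data known. Of the genes so named 4 are not reported here. Alternatives were other scalings and filters, DESeq2 1.42.0 with and without 3 surrogate variables of sva 3.50.0, limma-voom (limma 3.58.1), control 3 included, a replicate block, length offsets and leaving out each library.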

Additional observations from a re-analysis of the deposited data

Results flagged for a closer look

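In 22 groups of 176 examined, 1 library lay far from the others of its group. For normally distributed values chance alone gives about 1 such group in 20. The values here were not shown to be so distributed and come from the same libraries, so that rate may not hold. Sal 5 was the highest Sal-exposed library for THBS1 (19.4 CPM), PLAT (21.8 CPM), COL4A1 (124 CPM) and LAMB1 (72.4 CPM). Its marker sums also stood apart, with 275 CPM for cholangiocyte, 52.4 CPM for lymphocyte, 18.9 CPM for erythrocyte and 0.0786 CPM for pancreatic acinar cell markers. Sal 4 was the highest for SARM1 (53.4 CPM), C6 (494 CPM) and TF (34337 CPM), and Sal 6 for RPL22L1 (7.3 CPM). Among controls, control 1 was the highest for INF2 (1.51 CPM), COL14A1 (4.43 CPM), VIL1 (246 CPM) and the lymphocyte (46.7 CPM) and pancreatic acinar cell sums (0.50 CPM). Control 2 was the highest for the heart muscle sum (8.24 CPM), control 4 for SCD (148 CPM) and FASN (53.9 CPM), and control 6 for APOA4 (19183 CPM) and TF (20908 CPM).

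The change with Sal differed between liver and heart for 44 of the 72 named genes, by the test of the tissue by treatment term in edgeR. Many of these genes were named for their change in liver, so this share is no measure of how often the tissues differ. The values below are the liver minus the heart log2 fold change. Among metabolic genes it was positive for GYG2 (6.78, with no count in any liver control, so its size depends on the fit, and with a rise in heart too, of 5.79), KMO (3.34), PNPLA2 (3.23), ACOX3 (2.17), ACSL5 (1.94), SREBF1 (1.69), PDK4 (1.67) and GPAM (1.64), and for the receptor AHR (1.94). PCK1 and KMO had too few counts for a test within heart. The term was negative for PCK1 (-6.11), SCD (-4.12), NDUFS3 (-2.16), PKM (-1.98), MPC2 (-1.92), UQCRB (-1.70), NQO1 (-1.56), MTHFD1 (-1.54) and HMGCS1 (-1.24). Among secretory genes it was positive for F5 (2.98), ABCA1 (2.81), SEC24D (2.38), PLAT (2.16) and TTPA (1.58) and negative for APOA1 (-2.53) and SEC11C (-1.38). Among structural genes it was positive for COL4A6 (6.29), INF2 (4.60), LAMA5 (3.54), CYFIP2 (2.86), COL4A1 (2.86), COL14A1 (2.82), PPL (2.79), THBS1 (2.69), COL4A2 (2.69), FN1 (2.11) and LAMB1 (1.48), and negative for VIL1 (-4.48) and RPL22L1 (-2.85). Of the remaining named genes it was 3.65 for STARD13, 2.95 for CPED1, 2.68 for SARM1, -2.14 for SGTA, -2.17 for ABHD17B and -2.53 for SLC20A1. A term can also come from heart. LAMB1 and APOA1 did not pass the test in liver. Within heart their log2 fold changes were -1.15 (edgeR, adjusted p = 0.0422) and 1.66 (edgeR, adjusted p = 0.0242).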

How the results depend on the processing

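Of the 55 called genes among the 72 named, 46 kept their call in each of the 11 fits without 1 library. The call of 30 was lost under no setting in which they were tested. The fit at a mean CPM of at least 10 tested only 56 of the 72 named genes. The 858 calls (541 higher, 317 lower, 1464 at the adjusted p alone) ranged from 507 to 1269 on leaving out 1 library (higher 301 to 812, lower 186 to 457, adjusted p alone 739 to 2079). The lowest total was without Sal 2 and the highest without control 2. Library totals alone gave 169 lower calls and 823 at the adjusted p alone, with 76.4% of calls higher. DESeq2 gave 1337 (821 higher, 516 lower, 2337 at the adjusted p alone) and, with surrogate variables, 2642 (2227 higher, 4785 at the adjusted p alone). Limma-voom with quality weights gave 1458 (997 higher, 2511 at the adjusted p alone). Including control 3 gave 264 (146 higher, 118 lower, 324 at the adjusted p alone) and lost 15 of the named calls, and the tissue difference then had 1125 calls. On leaving out 1 library the latter had 1458 to 2314. Chosen after seeing the data, leaving out controls 2 and 4 gave 1695 (1036 higher, 659 lower, 2543 at the adjusted p alone), and a mean CPM of at least 10 gave 435 (300 higher, 135 lower) among 4381 genes. The cause of these shifts was not tested.

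Replicate numbers gave no sign of pairing the samples, since same-numbered libraries deviated with correlations of -0.17 to 0.08. With so few numbers to compare, these correlations cannot exclude a pairing. With the number as a replicate block 566 genes were called (408 higher, 158 lower, 711 at the adjusted p alone), and ABCA1, CPED1, SCD, PPL, SEC11C, CPT1A, COL6A2 and VIL1 lost the call.

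Other named calls were lost as follows. With control 3 included these were KIAA0319, STARD13, TTPA, NQO1, STMN1, HORMAD2, ACOX3, RPL22L1, CYFIP2, PLAT, COL14A1, C7, COL4A2, AHR and APOC3. On library totals alone they were SEC11C, CPT1A, COL6A2, VIL1 and APOC3. In limma-voom they were SARM1, COL14A1 and PPL, with gene length offsets SEC11C, COL4A2 and AHR, and in DESeq2 with surrogate variables PDK4 and SEC11C. Without controls 2 and 4 they were PDK4, SEC11C and APOC3, at a mean CPM of at least 10 SEC11C and CPT1A, and without the filter on low counts SEC11C.

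Signs changed only for genes that were not called, here given in log2 fold change. On library totals alone APOB had 0.0081, VIM 0.12, ALB 0.14 and SDHA 0.13. Without the filter on low counts ALB had 0.0062 and SDHA 0.0101. In DESeq2 with surrogate variables VIM had 0.0165 and ALB 0.0431. In limma-voom ALB had 0.0378 and SDHA 0.0718. With control 3 included SDHA had 0.0189. Under the replicate block VIM had 0.0652. With gene length offsets MTTP had -0.17. Without controls 2 and 4 APOB had 0.0224, MTTP -0.0301 and ALB 0.19. At a mean CPM of at least 10 VIM had 0.0763, ALB 0.087 and SDHA 0.11. On leaving out 1 library the ranges were TF -0.79 to 0.0361, ALB -0.0825 to 0.0985, SDHA -0.0683 to 0.0804, VIM -0.20 to 0.0785, LAMB1 -0.008 to 0.44, SERPINC1 -0.011 to 0.26 and MTTP -0.0277 to 0.13.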

Other observations

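Among called genes with a mean count of at least 100 and no overlap between the groups, 10 of those with the 10 largest fold changes per direction belong to none of the lists. LIPI, a phospholipase, had 20.8, 14.1, 15.6, 23.9 and 25.8 CPM in the controls and 1.86 to 4.1 CPM with Sal and fell by 2.79 on the log2 scale (SE 0.26, adjusted p = 5.97e-05). SLC20A1, a phosphate transporter, had 41.6 to 212 CPM against 23.6 to 34.6 CPM and fell by 2.19 on the log2 scale. SGTA, a co-chaperone of tail-anchored proteins, had 113 to 379 CPM against 36.7 to 57.2 CPM and fell by 2.15 on the log2 scale. HORMAD2, known from meiosis in mammals, fell by 2.51 on the log2 scale and ABHD17B, a depalmitoylase, by 1.84. No Sal-exposed library overlapped a control in these 5 genes.

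PNPLA2, the lipase that opens triglyceride stores, had 1.22, 0.996, 0, 1.71 and 1.46 CPM in the controls and 3.43 to 10 CPM with Sal and rose by 2.76 (log2, SE 0.60, adjusted p = 0.0096). STARD13 had 0.222 to 2.87 CPM against 10.7 to 14.7 CPM and rose by 3.07 (SE 0.43, adjusted p = 0.00113). SARM1, an NAD-cleaving enzyme, had 0.628 to 4.33 CPM against 4.42 to 53.4 CPM and rose by 2.99. KIAA0319 and CPED1 rose by 3.07 and 2.75.

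Fold changes went with expression level. Among the 2054 tested genes of lowest mean CPM the median log2 fold change was 0.39, with 62 genes called higher and 10 lower. Among the 2054 of highest mean CPM it was -0.19, with 80 higher and 99 lower. Across the 10269 genes, which are not independent replicates, Spearman's rho of the fold change was -0.23 with mean CPM and 0.22 with genomic span.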
